A study of Mus musculus with 2 samples.

Results

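NK1.1, the surface protein that marks natural killer (NK) cells in C57BL/6 mice, is encoded by Klrb1c, and its closest relatives Klrb1a, Klrb1b and Klrb1f encode receptors of the same NKR-P1 family. Clec2d and Clec2i encode ligands of this family, so that both sides of a receptor and ligand system can be read in the same cells. These 6 genes were taken by symbol from the 27998 genes of the deposited gene list, and each symbol had 1 row. Their raw counts of unique molecular identifiers (UMIs, tags that count captured mRNA molecules) were read in γδ T cells from the liver and the thymus of wild type, untreated C57BL/6J mice that were 8 weeks old. There was 1 droplet-based 3′ library per tissue, of cells sorted as positive for CD3e and the γδ T cell receptor, and thymic cells had first been depleted of CD4 and CD8 cells with magnetic beads. The cells came from several mice, which the labels do not tell apart. With 1 library per tissue there was no test between tissues, and every interval given covers counting error only.

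NKR-P1 receptors are C-type lectin-like proteins encoded in the NK gene complex, and several of them bind lectin-like proteins of the Clr (Clec2) family encoded between them, rather than MHC molecules. NKR-P1C (Klrb1c) is activating and signals through the FcRγ chain (Fcer1g), NKR-P1A (Klrb1a) is regarded as activating and has no firmly established ligand, NKR-P1B (Klrb1b) is inhibitory and binds Clr-b (Clec2d), and NKR-P1F (Klrb1f) binds Clr-g (Clec2i). Surface NK1.1 is widely used to mark γδ T cells, NKT cells and NK cells with an innate-like, interferon-γ-producing programme.

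All 6 genes lie on chromosome 6 within 577308 bases (GRCm38, the build named mm10 in the submitters' processing notes; GENCODE M21 annotation). On the minus strand are Klrb1a (chr6:128609227-128623533), Klrb1c (chr6:128778485-128789215) and Klrb1b (chr6:128813706-128826331). On the plus strand are Clec2i (chr6:128887588-128898167), Klrb1f (chr6:129045901-129057464) and Clec2d (chr6:129180615-129186534). Klrb1c and Klrb1a are shown side by side because theirs was the pair whose co-detection intervals, given below, were apart in the most classes. Clec2i is shown because it alone of the 6 was lower in the liver over all cells, at a ratio of 0.723. The windows are the parts, outside annotated exons, of the 250 bases before the RefSeq start site (GRCm38.p6, on each gene's own strand), at chr6:128788642-128788886, chr6:128622935-128623184 and chr6:128887337-128887586. The GENCODE spans of Klrb1c and Klrb1a given above start farther upstream than the RefSeq start sites. By that annotation these windows of Klrb1c and Klrb1a lie inside the genes. Capitals mark the RUNX motif TGTGGT, searched on both strands.
Klrb1c: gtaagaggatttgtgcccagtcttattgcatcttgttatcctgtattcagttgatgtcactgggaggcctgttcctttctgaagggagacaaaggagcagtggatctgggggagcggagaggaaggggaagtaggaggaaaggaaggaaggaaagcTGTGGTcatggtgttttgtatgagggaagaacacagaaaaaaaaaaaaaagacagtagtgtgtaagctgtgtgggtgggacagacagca
Klrb1a: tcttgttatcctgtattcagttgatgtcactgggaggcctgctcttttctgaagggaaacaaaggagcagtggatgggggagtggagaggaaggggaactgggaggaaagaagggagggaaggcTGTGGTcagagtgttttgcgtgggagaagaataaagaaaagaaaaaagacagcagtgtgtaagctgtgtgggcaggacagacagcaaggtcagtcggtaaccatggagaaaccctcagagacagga
Clec2i: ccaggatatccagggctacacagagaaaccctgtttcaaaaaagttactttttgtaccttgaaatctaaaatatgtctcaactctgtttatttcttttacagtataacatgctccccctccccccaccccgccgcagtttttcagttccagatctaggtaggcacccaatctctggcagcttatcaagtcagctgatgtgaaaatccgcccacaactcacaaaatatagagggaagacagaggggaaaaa
Over 210 aligned bases, 188 were identical between the Klrb1c and Klrb1a windows (89.5%), against 65.6% to 83.8% over the 37 to 190 bases that aligned in the other pairs of members. The RUNX motif was found once in the Klrb1c and once in the Klrb1a window and in none of the other 4. Of 32536 promoters of 250 bases, from which no exons were cut, 14% held it. The exon cut left 245 bases for Klrb1c and 234 for Klrb1b. The T-box motif GGTGTGA, searched on both strands, was in none of the 6 and in 3.33% of all promoters. A motif match is a description of the letters and says nothing about binding.

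After keeping cells with 800 to 4000 detected genes and at most 6% mitochondrial UMIs, 8075 hepatic and 4351 thymic cells remained, with 24168037 and 17064752 UMIs and medians of 2741 and 3271 UMIs per cell. Of the kept barcodes, 56 occurred in both libraries. The 6 genes and their relatives were left out when the cells were clustered, and clusters were named after the class of the study whose markers they carried. The liver held C4-like cells (Socs2, Cd28, Cd40lg; 2742 cells), C5-like cells (Ccl4, Tyrobp, Gzmb; 2860), C7-like cells (Klra6, Klra7, Klrg1; 287) and C8-like cells (Lyz2, Apoe, Cd74; 105). C3-like cells (Ly6c2, Dapl1, Tcf7) numbered 1127 in the liver and 182 in the thymus, and C6-like cells, which carry the interleukin-17 programme (Il17a, Il7r, Il23r), 794 and 164. C1-like cells (Cd24a, Sox13, Hes1) were thymic, with 2428 cells. Cluster 5 (1021 thymic and 44 hepatic cells, led by S1pr1, Cd200 and hemoglobin genes), cluster 7 (541 and 28, led by cell cycle genes) and cluster 10 (68 hepatic cells, led by interferon-induced genes) stayed without a class name. Cd3e was at 504.3 to 1119 counts per 1000000 UMIs (CPM), highest in C5-like cells, in all of these groups but the C8-like cells, which had 196 CPM and 12969 CPM of the macrophage gene Lyz2. Of the 5 conventional NK cell markers, Itga2, Klra4 and Klra8 stayed at or below 6.90 CPM in every group, and Ncr1 was highest in C5-like cells (262 CPM). Eomes was highest in the 44 hepatic cells of cluster 5 (46.1 CPM). It was at 35.6 CPM in C7-like cells (31 UMIs), 30.6 CPM in hepatic C3-like cells (115 UMIs) and 3.86 CPM in C5-like cells.

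Over all cells, the 4 receptors and Clec2d were higher in the liver, and Clec2i was not. Klrb1c had 8038 UMIs in the liver and 117 in the thymus, or 333 CPM (95% Poisson interval 325 to 340) against 6.86 CPM (5.67 to 8.22), a 48.5-fold ratio (40.4 to 58.7, exact conditional binomial interval). Klrb1b followed with 502 and 17 UMIs, 20.8 against 0.996 CPM and a ratio of 20.9 (12.9 to 36.1). Klrb1f stood at 51.9 against 4.28 CPM, a ratio of 12.1 (9.58 to 15.6), and Klrb1a at 19.2 against 2.93 CPM, a ratio of 6.55 (4.89 to 8.96). The receptors thus shared a direction, with intervals of their ratios that did not overlap between Klrb1c and Klrb1b, Klrb1f or Klrb1a. Of the ligands, Clec2d was at 67.6 against 18.9 CPM, 3.58-fold higher in the liver (3.18 to 4.05). Clec2i was at 61.7 against 85.4 CPM, a ratio of 0.723 (0.672 to 0.778). In all, 5 of the 6 genes were at least 2-fold higher in the liver, beside 12.1% of 10869 genes with at least 50 UMIs over both libraries, and none was at least 2-fold lower, beside 16.9%. Their median log2 ratio, with 10 CPM added, was 1.46, beside -0.11 over all genes tested. Of the other Klrb1 and Clec2 genes, Klrb1 had 43 UMIs in the liver and 1 in the thymus. Clec2e, Clec2g, Clec2h and Clec2l had no UMI in either library, which allows up to 0.124 CPM in the liver and 0.176 CPM in the thymus. Cd69, a lectin-like activation marker encoded next to Clec2d, was 2.05-fold higher in the liver (1.98 to 2.13).

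Within the hepatic classes, the receptors did not follow a common order. Klrb1c was highest in C5-like cells (577 CPM, 560 to 594), followed by cluster 10 (388, 307 to 485), C4-like cells (299, 287 to 311) and C7-like cells (298, 263 to 336), 3 neighbours whose intervals overlapped. The level was lower in C3-like cells, at 141 CPM in the liver (129 to 153) and 155 CPM in the thymus (125 to 191), which did not differ beyond their intervals. C1-like thymic cells had 6 Klrb1c UMIs in 8553301, or 0.701 CPM (0.257 to 1.53), and cluster 5 in the thymus 3.67 CPM (1.90 to 6.41). The C5-like cells, 35.4% of the hepatic cells, carried 57.6% of the hepatic Klrb1c UMIs, and the 182 C3-like cells, 4.18% of the thymic cells, carried 78.6% of the thymic ones. Leaving out the cells with the highest Scrublet scores moved Klrb1c in C6-like hepatic cells from 47.4 to 24.5 CPM. Scrublet, a doublet finder, called 4 hepatic and 2 thymic doublets here. Leaving out its highest scores is therefore read as a change of processing, here and below, and not as the removal of known doublets.

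Klrb1a was concentrated elsewhere. It was highest in C7-like cells (67.8 CPM, 51.6 to 87.5), then in C5-like cells (38.4, 34.2 to 42.9), and only 4.15 CPM (2.85 to 5.82) in C4-like cells, although C4-like and C7-like cells did not differ in Klrb1c beyond their intervals. C3-like cells had 12.2 CPM in the liver (8.96 to 16.3) and 22.0 CPM in the thymus (11.7 to 37.5), and C6-like cells 1.99 CPM in the liver and no UMI in the thymus, which allows up to 6.26 CPM. The ratio of Klrb1a between C5-like and C4-like cells was 9.25 (6.45 to 13.7), beside 1.93 (1.84 to 2.03) for Klrb1c. When the members and lists were kept among the genes used for clustering, the C4-like level was 2.71 CPM. Sequence shared between Klrb1a and Klrb1c could pass a read of one to the other, so 91-base stretches of the last 500 bases of their transcripts were compared with all other annotated transcripts. Of the Klrb1a stretches, 1.28% were also found in another gene, which was Klrb1c, and of the Klrb1c stretches 11.3%, in Klrb1a or in the read-through gene Gm44511. Gm44511, which spans Klrb1b and Klrb1c on their strand, had no UMI in either library. How reads in stretches shared between genes were counted is not given, so this count does not settle whether reads were lost or passed on.

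Klrb1b, the inhibitory receptor, had another pattern. C4-like cells had 26.6 CPM (23.2 to 30.5), C6-like hepatic cells 23.5 CPM (17.9 to 30.3) and C5-like cells 24.7 CPM (21.4 to 28.4), which did not differ beyond their intervals. It was lower in C7-like cells, with 6 UMIs and 6.90 CPM (2.53 to 15.01), and in C3-like hepatic cells, with 17 UMIs and 4.52 CPM (2.63 to 7.24), where leaving out the highest Scrublet scores gave 2.32 CPM. C1-like thymic cells had no Klrb1b UMI, which allows up to 0.351 CPM, and thymic C3-like and C6-like cells had 8 and 7 UMIs. Of the Klrb1b stretches at the transcript ends, 13.8% were shared with Gm44511.

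Klrb1f, the receptor that binds Clr-g, was highest in C5-like (88.2 CPM, 81.8 to 94.96) and C7-like cells (75.9, 58.7 to 96.5). It stood at 35.4 CPM in C4-like (31.4 to 39.8) and 37.5 CPM in C6-like hepatic cells (30.3 to 45.8), 21.02 in C3-like hepatic cells (16.6 to 26.2) and 38.8 in C3-like thymic cells (24.6 to 58.3). The thymic C1-like cells and clusters 5 and 7 had 0.977 to 3.74 CPM. Between C5-like and C4-like cells, 2 of the 6 genes, Klrb1a and Klrb1f (2.49, 2.17 to 2.87), were at least 2-fold higher, beside 2.48% of 8926 genes, and none was at least 2-fold lower, beside 2.69%. Between C5-like and C7-like cells, Klrb1b was 3.58-fold higher in the former (1.61 to 9.87) and no other member reached 2-fold in either direction, beside 7.0% of 7897 genes higher and 2.98% lower. Klrb1a was at 0.566 of its C7-like level there (0.427 to 0.761).

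The C6-like hepatic cells separated the receptors most clearly. Klrb1c was 6.30-fold higher in C4-like than in C6-like cells (5.24 to 7.64), whereas Klrb1b (1.13, 0.846 to 1.54) and Klrb1f (0.946, 0.747 to 1.21) had intervals that held 1. Of the 5 members with at least 50 UMIs, Klrb1c and Clec2i were at least 2-fold higher in the C4-like cells, beside 6.85% of 8352 genes, and none was lower, beside 6.53%. As a percentage of its level in C5-like cells, the C6-like level was 8.22% for Klrb1c, and between 7.24% and 10.8% for Fcer1g, Klrd1, Klrc1, Klrc2, Klre1 and Ncr1. It was 95.3% for Klrb1b, 42.5% for Klrb1f and 55.1% for Klrk1, which encodes NKG2D. The genes set beside the members here were chosen after their values had been seen. The C8-like cells, in which Cd3e was at 17.6% of the C5-like level, had Klrb1c at 10.9%, Klrd1 at 12.6% and Fcer1g at 118%. The part that transcripts from other hepatic cells had in the low Klrb1c level of C6-like and C8-like cells was not tested.

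**Figure D1:**
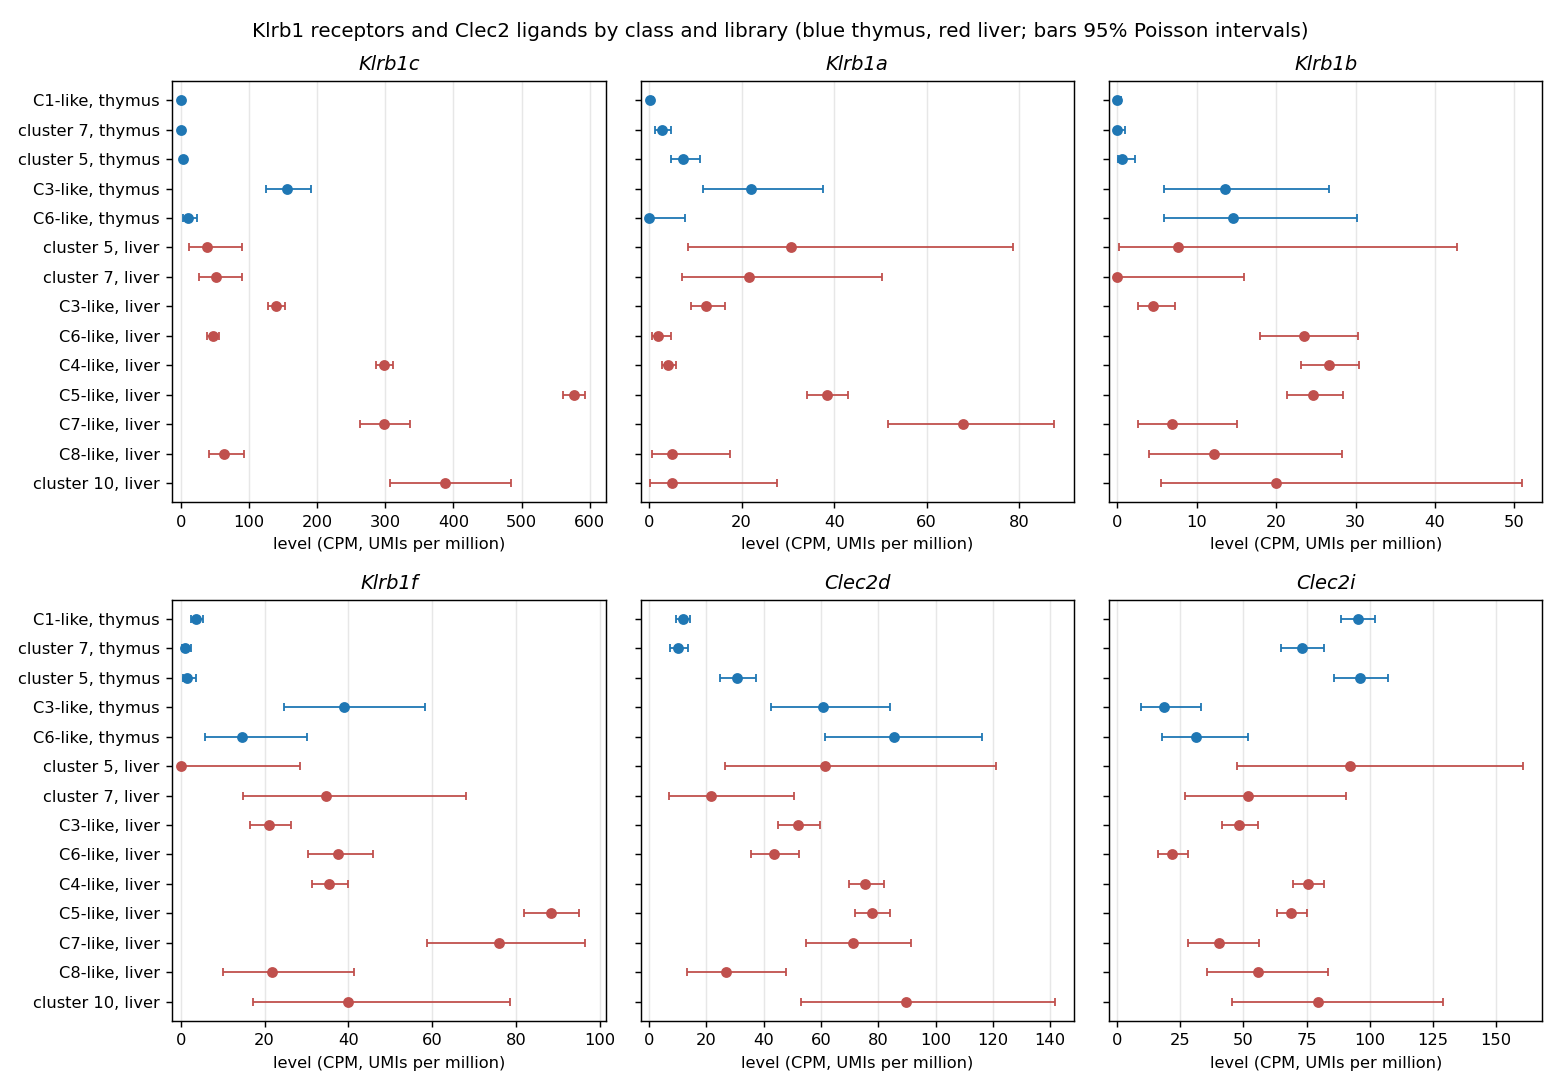
Level of each of the 6 genes in CPM (x axis, with its own linear scale in each panel) in 14 groups of cells of one class in one library (y axis), thymus in blue and liver in red, with 95% Poisson intervals as bars. Klrb1c peaks in C5-like cells at 577 CPM, Klrb1a in C7-like cells at 67.8 CPM, and Clec2i is highest in the C1-like and cluster 5 cells of the thymus.

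The ligands differed from each other in their order. For Clec2d, which encodes the ligand of the inhibitory receptor, C5-like cells had 77.8 CPM (71.8 to 84.1), C4-like cells 75.5 CPM (69.6 to 81.8) and C7-like cells 71.3 CPM (54.6 to 91.4), with 51.9 CPM in C3-like hepatic cells (44.9 to 59.7). Its lowest levels were in the thymus, at 11.7 CPM in C1-like cells (9.51 to 14.2) and 10.0 CPM in the cycling cluster 7 (7.19 to 13.6), with 30.6 CPM in cluster 5 (24.9 to 37.2). Thymic C3-like and C6-like cells had 60.8 and 85.6 CPM. After thinning, 1.49% of C1-like cells and 1 of 105 C8-like cells had a Clec2d UMI, beside 11.9% of C5-like cells. Clec2i had another order, which did not split by tissue. It was at 95.3 CPM in C1-like cells (88.8 to 102), 96.3 in thymic cluster 5 (86.0 to 108) and 73.0 in thymic cluster 7 (65.0 to 81.8), beside 69.03 CPM in C5-like (63.4 to 75.0) and 75.5 CPM in C4-like hepatic cells (69.6 to 81.8). Its lowest levels were 18.6 CPM in thymic C3-like (9.27 to 33.2) and 21.5 CPM in hepatic C6-like cells (16.2 to 28.1). C8-like cells had 55.8 CPM of Clec2i (35.4 to 83.7). After thinning, 11.4% of C8-like cells had a Clec2i UMI, beside 9.72% of C5-like cells. BC035044, which is annotated on the opposite strand and overlaps the start of Clec2i, had 300 UMIs in the liver and 142 in the thymus, beside 1492 and 1457 for Clec2i.

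The difference between tissues could be read within the 2 named classes that both libraries held, and in the unnamed clusters 5 and 7. Cluster 5 had Klrb1c at 38.4 CPM in 44 hepatic cells (12.5 to 89.6, from 5 UMIs) and 3.67 CPM in the thymus (1.90 to 6.41). Cluster 7 had 51.85 CPM in 28 hepatic cells (26.8 to 90.6, from 12 UMIs) and 0.244 CPM in the thymus (0.00618 to 1.36). In these clusters Klrb1c was thus higher in the liver beyond the intervals, from few hepatic cells and UMIs. The hepatic levels were near those of C6-like (47.4 CPM) and C8-like hepatic cells (63.05 CPM). The part that transcripts from other hepatic cells had in them was not tested. Cluster 7 was led by cell cycle genes, and whether its hepatic and thymic cells were otherwise alike was not tested. In C3-like cells, Klrb1c was at 0.904 of its thymic level in the liver (0.723 to 1.14), beside 48.5-fold over all cells. The alternatives of clustering, filtering and scaling gave 0.716 to 1.14 for this ratio. Klrb1a was at 0.558 (0.296 to 1.13), Klrb1f at 0.541 (0.337 to 0.903) and Clec2d at 0.854 (0.596 to 1.25). Clec2i was 2.59-fold higher in hepatic C3-like cells (1.42 to 5.29), with 181 and 11 UMIs, and 1.30-fold at a clustering resolution of 0.8. So 1 of 5 members with at least 50 UMIs was at least 2-fold higher in the liver within this class, beside 5.45% of 5941 genes, and none was lower, beside 3.82%. The members' median log2 ratio was -0.19, beside -0.036 over all genes tested. Other genes did differ between hepatic and thymic C3-like cells. Zbtb16, which encodes the innate-like lymphocyte factor PLZF, was at 122 CPM in the thymus and 11.4 in the liver, and Eomes at 11.8 and 30.6 CPM. Fcer1g was at 783 CPM in thymic and 516 CPM in hepatic C3-like cells.

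In C6-like cells, Klrb1c was 4.54-fold higher in the liver (1.89 to 14.3), from 119 and 5 UMIs, and 2.21-fold once the highest Scrublet scores were left out. After thinning, 4.79% of these hepatic cells had a Klrb1c UMI, beside 9.52% of C8-like cells. Klrb1f was 2.56-fold higher (1.20 to 6.55, from 94 and 7 UMIs), Klrb1b 1.61-fold (0.734 to 4.18), Clec2d at 0.507 (0.351 to 0.746) and Clec2i at 0.687 (0.382 to 1.31). Here 2 of 5 members were at least 2-fold higher in the liver, beside 6.52% of 5233 genes, and none lower, beside 2.14%, and the members' median log2 ratio was 0.45, beside -0.024 over all genes tested. Fcer1g was also higher in the liver in this class, with 527 UMIs there and 1 in the thymus. So were Klrd1 (27.4-fold), Klre1 (21.85-fold) and Klrc1 (9.40-fold), while Klrk1 was at 1.55. The part that transcripts from other hepatic cells had in these differences was not tested.

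**Figure D2:**
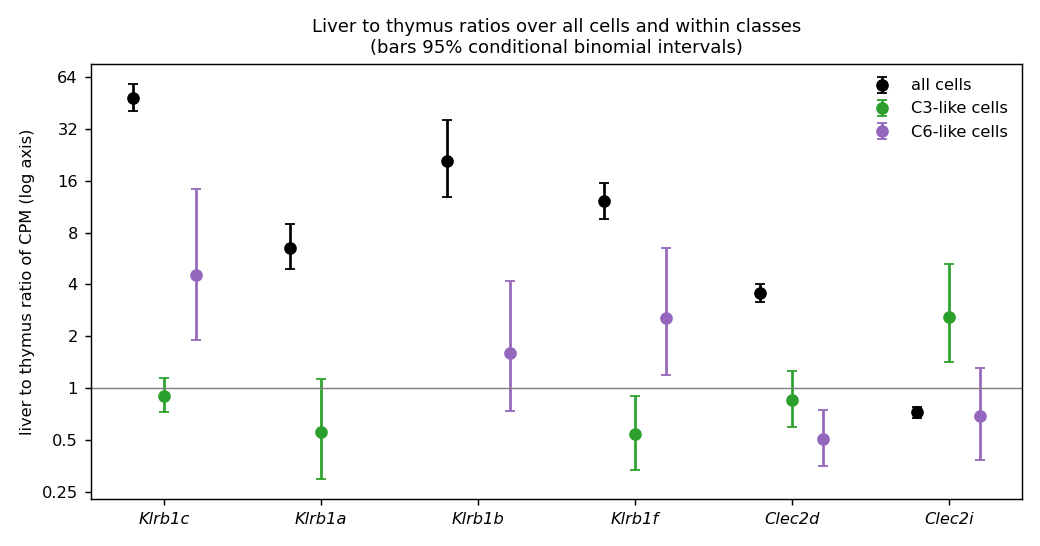
Liver to thymus ratio of CPM (y axis, log scale) for each gene with at least 50 UMIs over both groups, over all cells in black, within C3-like cells in green and within C6-like cells in purple, with 95% intervals. The Klrb1c ratio is 48.5 over all cells, 0.904 within C3-like cells and 4.54 within C6-like cells.

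Per cell, the counts were sparse. After each cell was thinned to 1500 UMIs, which left out 5 hepatic and 7 thymic cells that were shallower, 35.5% of hepatic cells had a Klrb1c UMI (34.5% to 36.6%, exact binomial interval) and 1.13% of thymic cells (0.836% to 1.49%). Without thinning the shares were 50.4% and 1.86%. In C5-like cells the share was 55.1%, in C4-like cells 33.9% and in C7-like cells 31.8%, and in C1-like thymic cells it was 0.0412%, at median depths of 2684, 2719, 2818 and 3182 UMIs before thinning. The C8-like group, whose median was 3069 UMIs, had 9.52% (4.66% to 16.8%, 10 of 105 cells). C6-like hepatic cells had 4.79% (3.41% to 6.51%), an interval that overlapped the C8-like one. Whether the UMIs in the C6-like and C8-like groups came from the cells' own expression was not tested. Among C5-like cells, 33.6% had 1 Klrb1c UMI, 14.6% had 2 and 6.86% had 3 or more, and 44.9% had none. A Poisson count with the same mean of 0.854 UMIs per cell gives 42.5% without a UMI. In C4-like cells 66.1% had none, beside 63.2% by the same reckoning, and in C7-like cells 68.2% beside 61.7%. The variance over the mean was 1.13, 1.20 and 1.42 in these classes. At this depth a cell without a UMI cannot therefore be called negative.

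**Figure D3:**
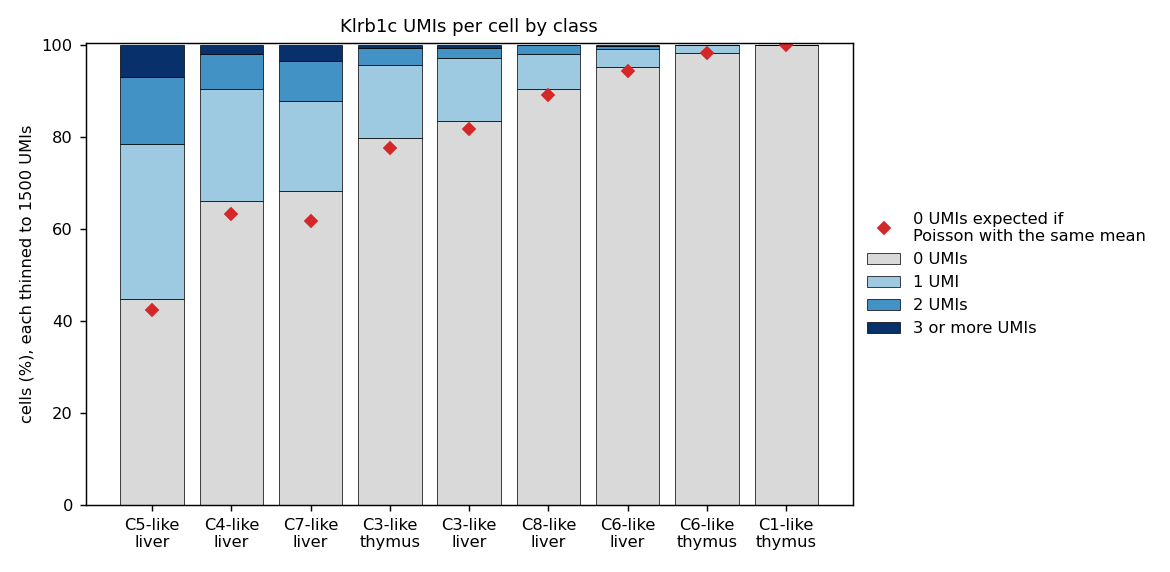
Share of cells (y axis, percent) with 0, 1, 2 or 3 and more Klrb1c UMIs after thinning to 1500 UMIs, in 9 groups of cells (x axis), with red diamonds for the share at 0 that a Poisson count of the same mean gives. C5-like cells have 44.9% at 0 and the diamond at 42.5%, and C7-like cells 68.2% and 61.7%.

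Co-detection was read in the thinned cells. Of 69 pairs of members compared within a class, 4 had shares with and without the first gene whose 95% intervals did not overlap, all of them with Klrb1c and with the second gene more frequent beside it. Klrb1a was the partner in 3 of them. In C5-like cells, a Klrb1a UMI was found in 5.91% of 1574 cells with a Klrb1c UMI (4.80% to 7.19%) and in 3.58% of 1285 cells without one (2.63% to 4.75%). The same shares were 19.8% (12.2% to 29.4%) and 7.18% (3.98% to 11.8%) in C7-like cells, and 5.38% (2.61% to 9.66%) and 0.745% (0.300% to 1.53%) in C3-like hepatic cells. In the fourth pair, a Klrb1f UMI was found in 7.53% of C4-like cells with a Klrb1c UMI (5.92% to 9.42%) and in 3.59% of those without (2.78% to 4.55%). In C5-like cells, where Klrb1f is higher, the shares were 11.6% and 11.7%. No share over other pairs of genes was computed, so these counts of pairs have no background to be read against. The count of pairs also moved with the processing. With the highest Scrublet scores left out, 4 pairs were again apart and higher, but Klrb1a in C5-like cells was no longer among them (6.01%, 4.86% to 7.34%, against 3.68%, 2.69% to 4.91%), Clec2d and Clec2i in C5-like cells were (14.0% against 8.90%), and Clec2d in C7-like cells was less frequent beside Klrb1c (2.35% against 13.1%). Without thinning, where deeper cells have more UMIs of every gene, 12 of 84 pairs were apart, all higher. They held the same 4 pairs. Among the others were Klrb1b beside Klrb1c in C4-like cells (7.54% against 4.39%) and in C6-like hepatic cells (13.9% against 4.62%). Klrb1f beside Klrb1c was another in C3-like hepatic cells (14.8% against 2.38%), where Clec2d (21.5% against 13.2%) and Clec2i (21.2% against 11.9%) were apart too. After thinning, the intervals of these other pairs overlapped. Klrb1b was then in 0 of 38 C6-like hepatic cells with a Klrb1c UMI and in 3.04% of those without. Klrb1f was then in 4.84% and 2.34% of C3-like hepatic cells. In the thymus, 5 of 49 cells with a Klrb1c UMI also had a Klrb1b UMI (10.2%, 3.40% to 22.2%), and 4 of 4295 cells without one did (0.0931%, 0.0254% to 0.238%), over all thymic cells and so across classes. Within thymic C3-like cells, 4 of 37 and 1 of 145 did, with intervals that overlapped (3.03% to 25.4% and 0.0175% to 3.78%).

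For the receptors and their own ligands, over all thinned hepatic cells, 23 had both Klrb1b and Clec2d UMIs where independence gives 23.5, and 54 had both Klrb1f and Clec2i UMIs where it gives 52.2. Within the classes none of these ligand pairs was apart after thinning. Without thinning, Clec2i was found in 5 of 20 thymic C3-like cells with a Klrb1f UMI (25%, 8.66% to 49.1%) and in 3.09% of those without (1.01% to 7.06%). Over hepatic cells, Clec2d and Clec2i were found together more often than by independence. Both were found in 102 hepatic cells where independence gives 74.2. In the liver, C5-like cells had 46 where it gives 33.0, C4-like cells 38 and 30.3, and C3-like cells 8 and 7.60. The shares in these classes had intervals that overlapped. Over thymic cells both were found in 16 where independence gives 15.4, and in C1-like cells in 3 where it gives 4.91. Any of the 4 receptors together with either ligand was found in 8.10% of hepatic cells (7.52% to 8.72%) and 0.276% of thymic cells (0.143% to 0.482%). In C5-like cells, 51.3% had 1 of the 4 receptors, 11.4% had 2 or more and 37.3% had none at this depth.

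**Figure D4:**
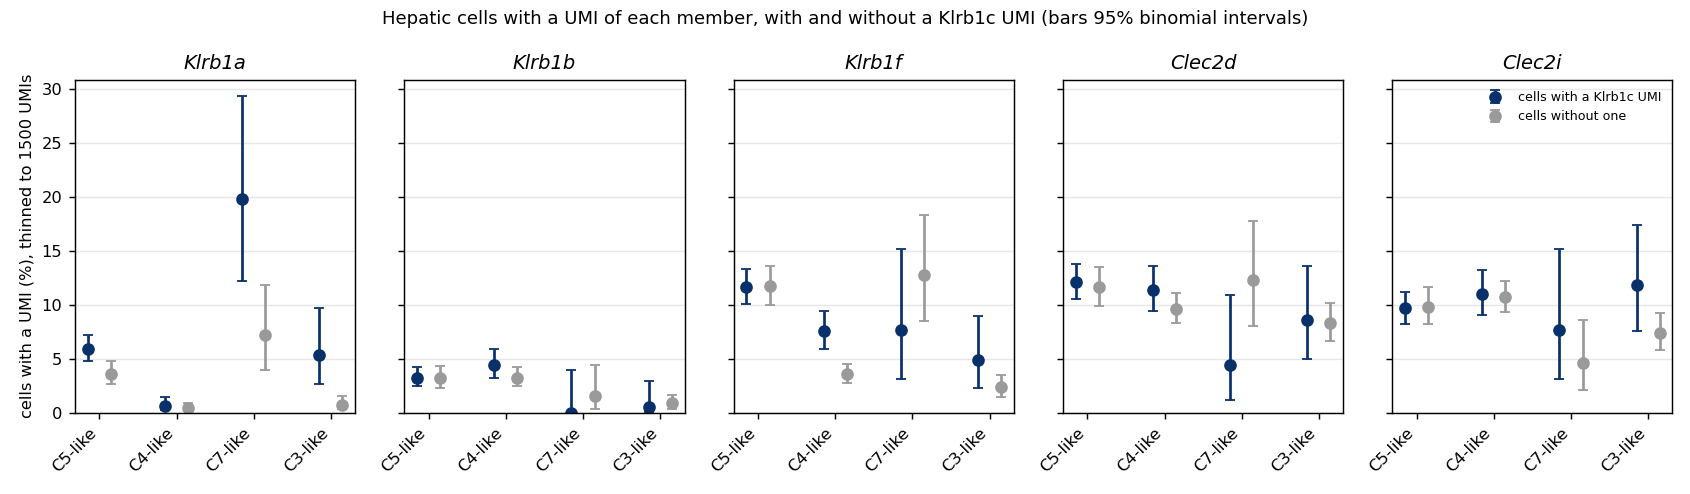
Share of hepatic cells with a UMI of Klrb1a, Klrb1b, Klrb1f, Clec2d or Clec2i (y axis, percent of cells thinned to 1500 UMIs) in 4 classes (x axis), among cells with a Klrb1c UMI (dark blue) and without one (grey), with 95% binomial intervals. The intervals are apart for Klrb1a in C5-like, C7-like and C3-like cells and for Klrb1f in C4-like cells.

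Cells with a Klrb1c UMI were then compared with cells of the same class without one. In C4-like cells, 1353 cells with a UMI (median 2756 UMIs) and 1389 without (median 2673) differed most in Tyrobp, an adaptor of activating NK receptors, at 448 against 288 CPM (1.56-fold, 1.44 to 1.68). Gzma, encoding granzyme A, was 1.47-fold higher, Ccl3, a chemokine gene, 1.48-fold, Fcer1g, the partner chain of NK1.1, 1.45-fold (1.37 to 1.53), and Klre1, an NK receptor gene, 1.41-fold. On the other side, Cd8a was at 0.631 (0.547 to 0.726), Atp2b1 at 0.764, Ly6a at 0.808, Socs3 at 0.817 and Rab11b at 0.833. The middle 90% of 1209 genes at 100 CPM or more lay between log2 ratios of -0.13 and 0.16. Below that level, Klrb1f was 2.05-fold higher (1.59 to 2.67), Ncr1 1.96-fold (1.51 to 2.55) and Klrb1b 1.63-fold (1.22 to 2.18), and Clec2d and Clec2i were at 1.06 and 0.996. Tyrobp is one of the markers that named the C5-like class. Fcer1g, Ncr1, Ccl3 and Cd8a were among the 10 leading genes of the C5-like cluster, so that Cd8a stood on the opposite side here, and Ly6a was among those of the C4-like cluster.

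In C5-like cells, 2107 cells with a Klrb1c UMI (median 2736 UMIs) and 753 without (median 2562) differed less. Ncr1, which encodes the activating receptor NKp46, was 1.44-fold higher (1.29 to 1.61), from 1715 and 384 UMIs, Hist1h1c 1.30-fold, Klra7, an inhibitory Ly49 receptor gene, 1.28-fold, Uqcrc2 1.23-fold and Eif4a3 1.23-fold. Plac8 was at 0.663 (0.564 to 0.781), the heat shock genes Hspa1a, Hspa1b and Hsph1 at 0.744, 0.778 and 0.798, and Nr4a1, an immediate-early gene of receptor signalling, at 0.752. Klrb1a was 2.10-fold higher (1.51 to 3.00), with 267 and 41 UMIs. Fcer1g was at 1.05 (1.01 to 1.08), and Ptpn6, the phosphatase that inhibitory receptors recruit, at 0.808 (0.719 to 0.910). Hspa1a and Hspa1b were among the 10 leading genes of the C4-like cluster. Cd3d, Cd3e and Cd3g lay between 0.977 and 1.05 in both classes.

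**Figure D5:**
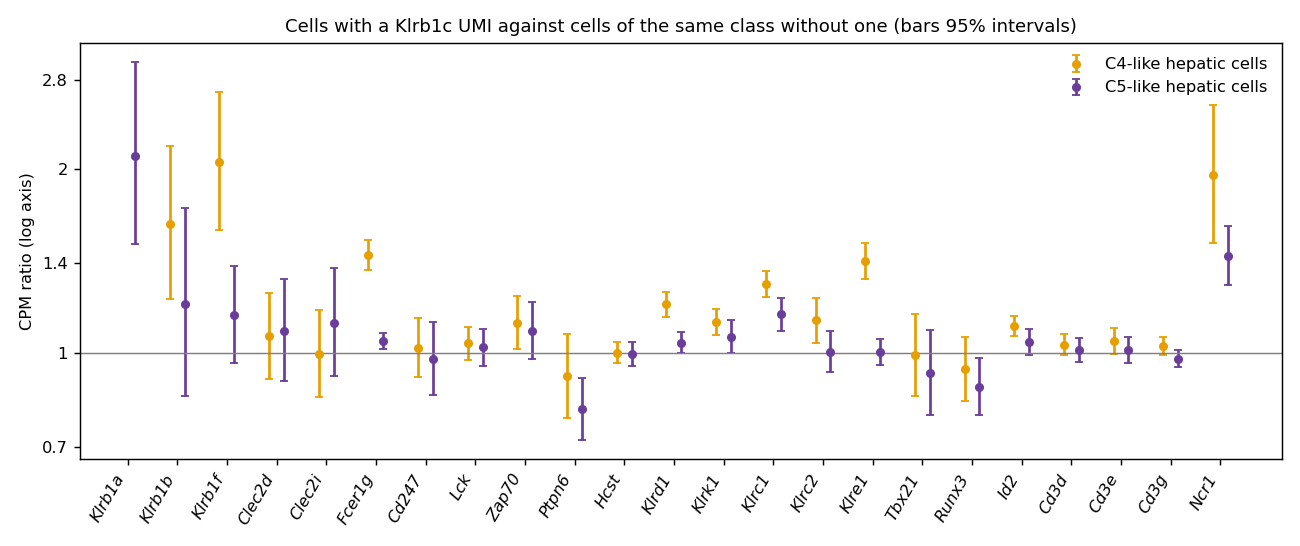
CPM ratio (y axis, log scale) of cells with a Klrb1c UMI to cells of the same class without one, for the other members, signalling, receptor, regulator, Cd3 and Ncr1 genes (x axis), in C4-like (orange) and C5-like hepatic cells (purple), with 95% intervals. Fcer1g is at 1.45 in C4-like cells and 1.05 in C5-like cells, and the Cd3 genes are near 1 in both. Not every listed gene is drawn, and Ptpn11 is among those left out.

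The genes that act with these receptors were read from fixed lists. Of 10 signalling genes, 3 were at least 2-fold higher in the liver over all cells, where 12.1% of all genes were and 16.9% were lower, Fcer1g (1372 against 49.0 CPM), Hcst, the adaptor of NKG2D (1107 against 222), and Syk, a kinase downstream of FcRγ (6.00 against 2.11). Cd247, the ζ chain of the T cell receptor complex, was lower (194 against 489), and 6 others were within 2-fold. By class, Fcer1g was at 2899 CPM in C5-like, 691 in C7-like, 621 in C4-like and 6.43 in C1-like cells. All 8 tested genes of 9 neighbouring NK complex receptors were at least 2-fold higher in the liver, from Klri2 (21.2-fold) to Klre1 (132-fold), with a median log2 ratio of 4.33. Within C3-like cells 1 of 6 tested was higher and 1 lower, beside 5.45% and 3.82% of all genes, and within C6-like cells 4 of 5 were higher, beside 6.52%. Of the regulators, Tbx21 (75.6 against 1.29 CPM) and Id2 (1026 against 133) were at least 2-fold higher in the liver. Runx3, a factor that binds RUNX motifs, was at 75.2 to 213 CPM in every group, with 147 CPM in C1-like cells.

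Over the 14 groups, the genes whose log2 levels followed Klrb1c most closely among 4425 genes were Fasl (Pearson's r = 0.968), Klrc1 (0.964), Klrc2 (0.961), Serpina3g (0.957) and Ppp3cc (0.947). For Clec2d they were Pea15a (0.930), Flt3l (0.923), Shisa5 (0.909), Cers4 (0.886) and Mxd1 (0.885). Among the members, r with Klrb1c was 0.85 for Klrb1f, 0.72 for Clec2d, 0.67 for Klrb1b, 0.55 for Klrb1a and -0.18 for Clec2i. The groups share 2 libraries and are not independent, so these values only describe the order.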

How the data were processed

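The authors deposited raw counts of UMIs per gene and cell barcode, without normalization, from 1 hepatic and 1 thymic library of 10x Genomics 3′ v2 chemistry. Per the labels' processing notes Cell Ranger, Seurat 3.0 and mm10 were used. The Cell Ranger version, the annotation and the use of strand in counting are not given in the sources used here. The filter kept more cells than the study analysed, and 2 stray lines after the declared entries of the thymic matrix were not read.

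Cells were clustered in Seurat 5.3.0 (R 4.3.3) at resolution 0.6 from 30 principal components of 2000 variable genes, without the members, family and signalling lists. A cluster took the class with the highest mean log2 marker ratio, at least 0.5, with a lead of 0.2 and 3 markers found. Groups under 20 cells have no level. Scrublet (scanpy 1.11.5) called 4 hepatic and 2 thymic doublets and so has not worked, and doublets were kept. The setting without the highest scores left out 577 hepatic and 164 thymic cells and does not show an effect of doublets. CPM are UMIs summed over cells per 1000000 UMIs, with exact 95% intervals. Folds of 2 were counted over genes with at least 50 UMIs. Thinning used seed 11. Python 3.11.15, numpy 2.4.6, scipy 1.17.1, pandas 2.3.3 and matplotlib 3.10.9 were used, and the code was tested on simulated data.

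Named genes were the members, the listed relatives, signalling, NK complex and regulator genes, the 5 genes most like Klrb1c and Clec2d, and the 5 largest ratios each way between cells with and without a Klrb1c UMI (10 CPM added, at least 100 CPM). Members and lists were chosen with earlier results of these data known. Klrb1g, Klrb1-ps1, Clec2f and Clec2j were not matched in the gene list. One listed regulator is not reported here.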

Additional observations from a re-analysis of the deposited data

How the results depend on the processing

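No paired analysis was possible because each tissue has 1 library and no test was made. Levels in a library and liver to thymus ratios stayed within the counting interval of the reported value in 65 and 37 recalculations and moved out of it in 19 and 5, and no ratio over whole libraries changed direction. Of the ratios within a class 110 stayed within their interval and 3 moved, all in C3-like cells. Klrb1c went from 0.904 to 0.716 with the highest Scrublet scores removed and to 1.14 at resolution 0.8, on either side of 1, and Clec2i from 2.59 to 1.30 at resolution 0.8. Without thinning, 2 of the 4 shares of cells with a second member beside Klrb1c moved, to 12.1% (Klrb1f, C4-like) and 10.2% (Klrb1a, C5-like). Totals without mitochondrial and ribosomal-protein genes moved the hepatic levels to 457 (Klrb1c), 26.4 (Klrb1a), 28.5 (Klrb1b), 71.3 (Klrb1f), 92.8 (Clec2d) and 84.8 CPM (Clec2i), the thymic ones to 10.35 (Klrb1c), 4.43 (Klrb1a), 6.46 (Klrb1f), 28.5 (Clec2d) and 129 CPM (Clec2i), and the log2 ratio of Clec2i to -0.60. The mean of the cells' CPM gave 343 (Klrb1c, liver), 8.93 (Klrb1c, thymus) and 22.2 CPM (Clec2d, thymus), with log2 ratios of 5.26 (Klrb1c) and 1.66 (Clec2d). Thinning to 1500 UMIs gave 345 (Klrb1c) and 72.4 CPM (Clec2d) in the liver, 9.21 (Klrb1c), 1.69 (Klrb1b) and 5.83 CPM (Klrb1f) in the thymus, and log2 ratios of 5.23 (Klrb1c) and 3.17 (Klrb1f). Of the recalculated class levels 595 stayed within their interval and 53 moved, and 32 of these 53 came from the totals without mitochondrial and ribosomal-protein genes. Shares of cells moved with the depth in 21 recalculations and stayed in 3. The 5 leading genes of each comparison by Klrb1c UMI, and the 5 most like Klrb1c and Clec2d, overlapped by at least 4 when 50 CPM were added in place of 10. With 1 library per tissue, tissue, sort and library cannot be told apart, and classes with few Klrb1b or Klrb1a UMIs have wide intervals.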
